A study of Homo sapiens with 2 samples.

Results

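The regions described here are 1852 promoter tiles, stretches of 500 bp whose CpG cytosines were far less methylated in SKNO-1 than in SKNO1-siAE. The autosomes were divided into tiles of 500 bp. A tile was measured where each library covered at least 10 common CpG cytosines with at least 5 reads, and its methylation level was the mean over these cytosines of methylated reads divided by all reads, a fraction from 0 to 1. Of 99847 measured tiles, 38446 overlapped a promoter, taken as 1500 bp upstream to 500 bp downstream of a protein-coding transcript start. The 1852 tiles were selected on the measured difference itself, SKNO-1 minus SKNO1-siAE of -0.6 or lower, so that difference is a description of the selection and carries no test. They were 4.82% of the promoter tiles and belonged to 1400 genes, or 8.89% of the 15752 genes with a measured promoter tile.

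SKNO-1 is an acute myeloid leukemia line with the fusion gene RUNX1-RUNX1T1, also called AML1-ETO. SKNO1-siAE was made from it with a lentiviral vector that expresses small interfering RNA against the fusion site of the AML1-ETO transcript, and both lines grew in the same medium. Genomic DNA was studied by MCC-Seq, in which bisulfite lets unmethylated cytosine be read as thymine and probes capture converted DNA of selected regions. There was 1 library per line and no library of SKNO-1 with a control vector was analysed here, so the silencing of the fusion, the infection and the separate growth of the lines cannot be told apart. The libraries covered 4713346 and 4694016 deposited cytosines, at a mean depth of 17.7 in SKNO-1 and 17.5 in SKNO1-siAE. Expression was not measured by this assay, and the level of the fusion transcript was not checked. A read that covered several cytosines was counted at each of them, so the counts given below are calls, each 1 read at 1 cytosine, and calls of neighbouring cytosines are not independent. Where a 95% Wilson confidence limit is given, the mean depth of the tile was taken as the number of observations. The reads carry no molecular identifiers, and such a limit covers counting error only.

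In mammalian DNA, methyl groups are placed mainly on cytosines of CpG dinucleotides. Most CpGs of the genome are methylated, whereas CpG-rich promoters are usually free of methylation and dense methylation of such a promoter is commonly found with a silent gene. DNMT1 maintains methylation after replication, DNMT3A and DNMT3B add it, and TET enzymes oxidize it, a step towards its removal. Aberrant promoter methylation is common in acute myeloid leukemia.

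The sequences of 6 promoter stretches are printed first, because they show how dense the CpGs could be where the level went from near 0 in SKNO-1 to near 1 in SKNO1-siAE. Each is 200 bases of the + strand of GRCh37 (hg19), 5′ to 3′, outside annotated exons. Within the selected tiles of a gene, the stretch with the most measured CpGs was printed, so the density shown follows from this choice. Capitals mark the CpGs with at least 5 reads in both libraries on at least 1 strand. The 6 genes were taken from those named by rule, after their values were seen. The stretches are chr7:138720789-138720988, chr17:7255001-7255200, chr1:206680644-206680843, chr16:89008269-89008468, chr4:331260-331459 and chr4:109088251-109088450, in the order of the lines.
ZC3HAV1L: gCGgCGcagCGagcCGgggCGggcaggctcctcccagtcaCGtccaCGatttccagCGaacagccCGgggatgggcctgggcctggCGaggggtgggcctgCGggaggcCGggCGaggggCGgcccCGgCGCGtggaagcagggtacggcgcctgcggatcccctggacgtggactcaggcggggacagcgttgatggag
KCTD11: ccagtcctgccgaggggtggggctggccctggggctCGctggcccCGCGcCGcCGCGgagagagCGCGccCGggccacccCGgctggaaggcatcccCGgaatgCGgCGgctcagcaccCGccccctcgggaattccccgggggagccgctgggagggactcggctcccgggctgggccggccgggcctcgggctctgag
RASSF5: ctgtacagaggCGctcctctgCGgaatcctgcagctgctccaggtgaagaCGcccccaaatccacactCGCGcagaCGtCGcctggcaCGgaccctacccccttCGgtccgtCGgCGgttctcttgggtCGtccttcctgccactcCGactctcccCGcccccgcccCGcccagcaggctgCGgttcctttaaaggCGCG
CBFA2T3: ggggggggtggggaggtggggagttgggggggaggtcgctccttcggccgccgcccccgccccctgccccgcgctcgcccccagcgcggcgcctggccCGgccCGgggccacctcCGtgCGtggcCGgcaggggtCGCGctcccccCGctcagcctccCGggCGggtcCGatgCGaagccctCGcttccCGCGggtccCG
ZNF141: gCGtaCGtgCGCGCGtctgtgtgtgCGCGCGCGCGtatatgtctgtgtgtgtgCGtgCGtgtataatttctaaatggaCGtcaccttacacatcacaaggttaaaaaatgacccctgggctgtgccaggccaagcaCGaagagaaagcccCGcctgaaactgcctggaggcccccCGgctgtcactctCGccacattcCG
LEF1: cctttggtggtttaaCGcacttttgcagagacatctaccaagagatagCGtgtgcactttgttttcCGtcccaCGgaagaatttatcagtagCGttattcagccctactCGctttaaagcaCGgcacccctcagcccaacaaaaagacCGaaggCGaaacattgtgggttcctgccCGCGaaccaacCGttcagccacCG

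The stretch at ZC3HAV1L, a relative of the antiviral zinc finger protein ZAP, ended 1 bp from the transcript start. Of its 23 CpGs 17 were measured, with 0 of 196 calls methylated in SKNO-1 and 372 of 372 in SKNO1-siAE. The KCTD11 stretch, 8 bp upstream of the start of a gene for a substrate adaptor of a cullin ubiquitin ligase, gave 0 of 70 and 168 of 177 methylated calls. In the RASSF5 stretch, 21 bp upstream of the start of a gene for a Ras effector, the methylated calls were 0 of 452 against 772 of 792. This stretch held the letters TGCGGT or their complement, a RUNX-type motif that contains a CpG. CBFA2T3 encodes ETO2, a corepressor of the same family as RUNX1T1, and its stretch, 17 bp upstream of a start, had 2 of 105 methylated calls against 109 of 112. The remaining stretches lay farther from a start. At ZNF141, a zinc finger gene, the distance was 144 bp upstream. LEF1 is the transcription factor gene at the end of the Wnt pathway. Its stretch lay 298 bp upstream of an internal start at 109087953. It was inside the gene, downstream of the LEF1 start at 109088954 used for single cytosines below. At ZNF141 0 of 476 and 944 of 970 calls were methylated, and at LEF1 4 of 100 and 287 of 297.

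Over all 1852 tiles, SKNO-1 had a median level of 0.0247 against 0.912 for SKNO1-siAE, with a median difference of -0.828. SKNO-1 levels ranged from 0 to 0.377, and 1392 tiles (75.2%) were under 0.1. In SKNO1-siAE the levels ranged from 0.601 to 1, and 1008 tiles (54.4%) were over 0.9. Both held in 691 tiles, which went from nearly free of methylation to nearly full. The quartiles of the difference were -0.917 and -0.714, and 556 tiles (30.02%) were lower by 0.9 or more.

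**Figure D1:**
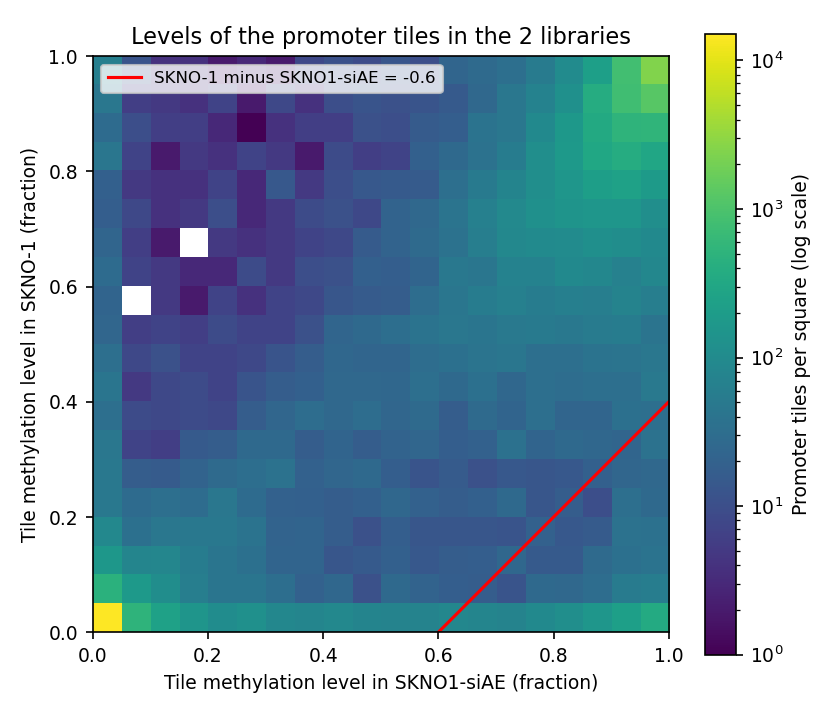
Levels of the 38446 promoter tiles, SKNO1-siAE on the horizontal axis and SKNO-1 on the vertical axis, both as fractions, with the number of tiles per square on a log colour scale. The 1852 selected tiles lie below the red line, and most sit in the lowest row, where SKNO-1 is near 0.

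Such tiles were rarer in the other direction. The level was at least 0.6 higher in SKNO-1 in 392 promoter tiles (1.02%), at 309 genes (1.96%). Because a tile can be lower in SKNO-1 only where SKNO1-siAE is methylated, the counts were also set against the tiles that allowed the difference. The 1852 tiles were 11.0% of the 16817 promoter tiles at 0.6 or more in SKNO1-siAE, whereas the opposite tiles were 2.83% of the 13861 at 0.6 or more in SKNO-1. Per gene, 16.7% of the 8403 genes with a promoter tile at 0.6 or more in SKNO1-siAE had a selected tile. Over all autosomal tiles, promoter or not, 3.57% were at least 0.6 lower in SKNO-1.

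Just inside the threshold of -0.6 lay tiles of CCDC149, SLC6A5, CYP4V2, CCDC102B and PRKAR1A, with differences of -0.6001, -0.6005, -0.6005, -0.6009 and -0.6009. Just outside it lay tiles of PXYLP1, PNPLA6, TCEANC2, SLITRK5 and SLN, with differences between -0.5999 and -0.5990. The tile at PRKAR1A, a regulatory subunit of protein kinase A, was at 0.0982 in SKNO-1 and 0.699 in SKNO1-siAE. At SLITRK5, a neuronal membrane protein gene, the level was 0 against 0.599, and its SKNO-1 level was as low as in the selected tiles.

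A mean difference this large requires that most cytosines of a tile be lower in SKNO-1, so the shares of shared cytosines and of strands given here follow in part from the selection. The tiles held 48863 shared cytosines, of which 46812 (95.8%) were lower in SKNO-1 and 40118 (82.1%) were lower by at least 0.6. Single cytosines had a level of 0 in 82.6% of cases in SKNO-1 and a level of 1 in 65.3% in SKNO1-siAE. The median SD of site levels within a tile was 0.0794 in SKNO-1 and 0.181 in SKNO1-siAE, so SKNO1-siAE was the less even of the pair. The selection did not use cytosines with at least 5 reads in only 1 library. The mean level over 17498 of these in SKNO-1 was 0.0809, and over 21778 in SKNO1-siAE it was 0.848. These cytosines are neighbours of the ones used and come from the same libraries. Of 1220 tiles with at least 5 shared cytosines on each strand, all 1220 were lower on both strands and 971 (79.6%) were lower by at least 0.6 on both.

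A difference of exactly -1, with every read unmethylated in SKNO-1 and methylated in SKNO1-siAE, was found in 25 tiles. The smaller of the mean depths of these tiles had a median of 7 reads and a maximum of 14.1, so they were shallow. STARD13, a GTPase-activating protein gene, had the most cytosines, 31 in the tile at its first exon (chromosome 13, 33924501 to 33925000). There SKNO-1 had 0 of 362 methylated calls and SKNO1-siAE 275 of 275. The mean depths were 11.7 and 8.87 reads, which put the upper limit of the SKNO-1 level at 0.248 and the lower limit of the SKNO1-siAE level at 0.698. KCTD11 followed with 0 of 150 and 171 of 171 calls, and INPP4B, a phosphoinositide phosphatase gene, had 0 of 219 and 167 of 167. One tile served both MACROD2 and SEL1L2 (0 of 237 and 177 of 177), and one served the interferon-induced genes CMPK2 and RSAD2, which lie on opposite strands (0 of 71 and 207 of 207). Others of this kind were at CACNB4, an auxiliary subunit of calcium channels, at ANXA2 and PDLIM1, which bind membrane or the actin cytoskeleton, and at FGF22, SEPTIN5, HK1 and ZC3HAV1L. Not all starts of these genes differed so. The CACNB4 tiles with a start beside the selected one were at 0 against 0.241 and 0.0612 against 0.00523. ANXA2 also had a tile with a start at 0.956 against 0.978.

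Depth moved with the selection. Selected tiles made up 6.80% of the promoter tiles whose smaller mean depth was 5 to 10 reads, 4.93% at 10 to 15, 4.02% at 15 to 20, 3.34% at 20 to 30 and 2.32% at 30 or more. Among tiles at 0.6 or more in SKNO1-siAE the share went from 18.1% to 3.85% over the same classes. The median depth of the selected tiles was 13.8 in SKNO-1 and 15.3 in SKNO1-siAE, against 16.5 and 16.3 over all promoter tiles. The part of depth in the selection was not tested. Large differences were also present at high depth. At CYP51A1, a sterol demethylase gene of cholesterol synthesis, SKNO-1 had 5 of 996 methylated calls against 1169 of 1182. WSB2 had 4 of 390 against 418 of 418, and NFKBIZ, which encodes a nuclear regulator of NF-kappaB target genes, had 0 of 1398 against 1372 of 1410. PNPLA6, a phospholipase gene, had 0 of 1269 against 1330 of 1382 in the tile beside the one named just outside the threshold. CPT1A, the entry enzyme of long-chain fatty acids into mitochondria, had 17 of 832 against 841 of 864. These 5 genes were chosen after their values were seen, among tiles with a mean depth over 25 in both libraries.

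CpG content moved with it too. A tile was called CpG-rich where its observed to expected CpG ratio was over 0.75 and its GC content over 55%, CpG-poor where the ratio was under 0.48, and intermediate otherwise. Selected tiles were 767 of 12810 CpG-rich tiles (5.99%), 841 of 16921 intermediate tiles (4.97%) and 244 of 8715 CpG-poor tiles (2.80%). Of the 3670 CpG-rich tiles at 0.6 or more in SKNO1-siAE 20.9% were selected, against 11.6% of intermediate and 4.14% of CpG-poor tiles. The order of the classes was the same at each depth. With a smaller depth of 5 to 10 reads the shares were 25.9%, 16.0% and 7.28%, and with at least 20 reads they were 12.3%, 7.44% and 3.37%. The opposite tiles had the same order among tiles at 0.6 or more in SKNO-1, with 5.19%, 2.66% and 1.72%, each lower than its counterpart.

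**Figure D2:**
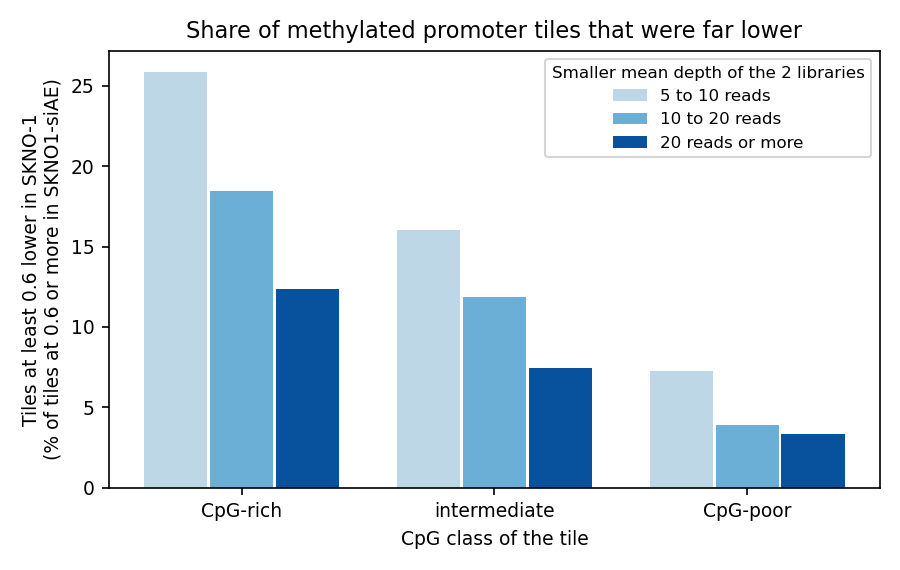
Promoter tiles at least 0.6 lower in SKNO-1, as a percent of those at 0.6 or more in SKNO1-siAE (vertical axis), by CpG class (horizontal axis) and by the smaller mean depth of the libraries (bar colour). The bars fall from 25.9% for shallow CpG-rich tiles to 3.37% for deep CpG-poor tiles, and in each class the deeper tiles have the shorter bars.

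The selected tiles were then placed relative to the transcript start. A start lay inside 909 of the selected tiles (49.1%), against 47.2% of all promoter tiles. The share of selected tiles ran between 3.48% and 5.13% across classes of 250 bp from upstream to downstream of the start. Set against the tiles at 0.6 or more in SKNO1-siAE, the share moved more with position. It was 4.69% (29 of 618) in the class that began 1500 bp upstream, 13.5% (456 of 3373) in the 250 bp upstream of the start and 13.8% (453 of 3294) in the 250 bp downstream. Tiles within promoters on both strands, as at divergent gene pairs, were 81 of the selected tiles (4.37%), against 9.496% of all promoter tiles. For each gene, the start nearest to its tile with the largest decrease was taken and the levels around it were averaged. In SKNO-1 the mean level was 0.0823 in the 200 bp upstream of the start and 0.0893 in the 200 bp downstream, and it rose to 0.587 at 2800 to 3000 bp upstream and 0.720 at 2800 to 3000 bp downstream. In SKNO1-siAE the same windows gave 0.731, 0.751, 0.641 and 0.803. The profile of SKNO-1 therefore had a trough at the start, and that of SKNO1-siAE had none. The starts were chosen for the difference near them, so the trough is part of the selection.

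**Figure D3:**
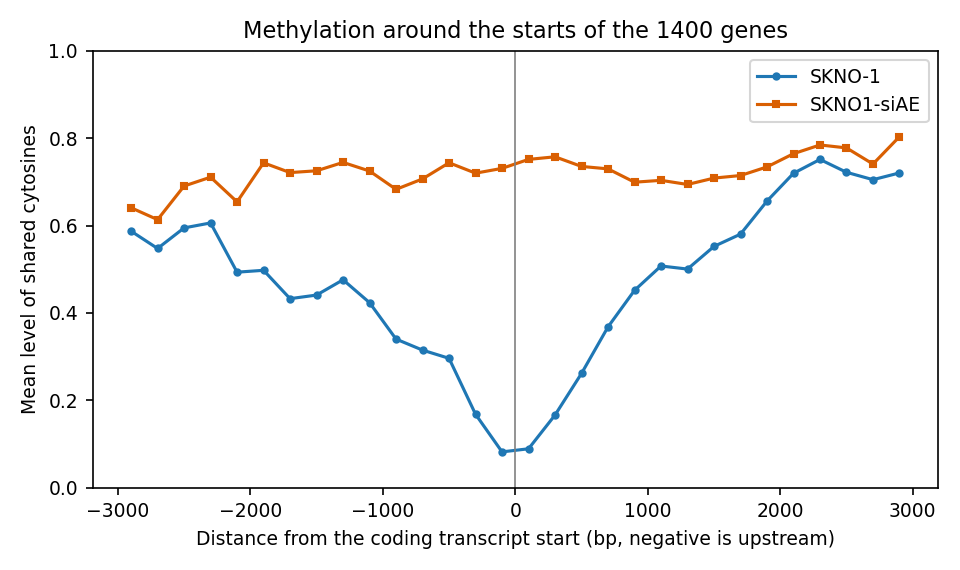
Mean level of the shared cytosines (vertical axis, fraction) in windows of 200 bp by distance from the transcript start (horizontal axis, bp) for the 1400 genes. SKNO-1 dips to 0.0823 just upstream of the start, and SKNO1-siAE stays between 0.614 and 0.803.

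The selected tiles formed 1403 runs of adjacent tiles, of which 1016 were single tiles, 336 were pairs and the others were longer. The longest, 6 tiles or 3000 bp (chromosome 5, 32709501 to 32712500), covered the promoter of NPR3, the clearance receptor for natriuretic peptides. Its 174 cytosines averaged 0.00633 against 0.820, from 3172 calls of SKNO-1 and 4729 of SKNO1-siAE. Runs of 5 tiles lay at MARCKS, an actin-binding substrate of protein kinase C (0.0814 against 0.911), and at ICAM5, a neuronal adhesion molecule (0.0417 against 0.897). Runs of 4 tiles lay at SAMD5, ZNF763, EVA1C and LEF1. The LEF1 run, from 109088001 to 109090000 on chromosome 4, had 64 cytosines at 0.00926 and 0.936. SSPN, which encodes a member of the dystrophin complex, had 3 tiles with 130 cytosines at 0.0959 and 0.981, and a run of 3 at ZNF141 was at 0.0897 and 0.943. Beyond the ends of the runs 989 tiles were measured, with medians of 0.437 for SKNO-1 and 0.831 for SKNO1-siAE. Of these, 436 (44.1%) were still 0.2 to 0.6 lower in SKNO-1, 353 (35.7%) were over 0.6 in both libraries and 128 (12.9%) were under 0.1 in both.

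Single cytosines were followed along some of the promoters. At CD44, the hyaluronan receptor of leukocytes and leukemic stem cells, 44 cytosines in the 500 bp upstream of the start at position 35160735 of chromosome 11 averaged 0.0137 for SKNO-1 and 0.962 for SKNO1-siAE. The 42 in the first 500 bp downstream were at 0 and 0.995. At 1500 to 2000 bp upstream, 6 cytosines were methylated in both libraries, at 0.990 and 0.987, unlike at the start. At ZNF763 the difference narrowed but did not end, with 0.00439 and 0.957 in the first 500 bp of the gene, 0.445 and 0.994 in the next 500 bp, and 0.669 and 1 over 2 cytosines at 1500 to 2000 bp. PAX5, the B-cell lineage factor, was at 0 against 0.949 in the 500 bp upstream of a start, while 500 to 1000 bp downstream 12 cytosines were at 0.785 and 0.783.

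TAL1, a regulator of hematopoietic stem cells, differed beside its start and not at it. In the 500 bp upstream of the start at 47697387 of chromosome 1, 12 cytosines were at 0 in SKNO-1 and 0.0171 in SKNO1-siAE. At 500 to 1000 bp downstream, 32 cytosines were at 0.00772 and 0.982. Among the 1400 genes, 184 (13.1%) were of this kind, with a tile at the start under 0.1 in both libraries and a selected tile elsewhere. At the start the tile was itself selected in 824 genes (58.9%), was in another state in 230 (16.4%) and was not measured in 162 (11.6%).

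Another start at least 2000 bp away, with a tile under 0.1 in both libraries, was found for 121 genes (8.64%). At NMD3, which exports the large ribosomal subunit from the nucleus, a tile of 65 cytosines, shared with the promoter of B3GALNT1, was at 0 in SKNO-1 and 0.993 in SKNO1-siAE, and a start 116735 bp away was at 0.00294 and 0. LMNA, the gene of lamins A and C, had a tile of 17 cytosines at 0.00490 and 1 upstream of a start, while the tile at that start was itself at 0.0210 and 0, and another start 31673 bp away was at 0 in both. SPHK2, a sphingosine kinase gene, and DEGS1, a ceramide synthesis gene, had starts 4922 and 7484 bp away that were under 0.01 in both. SEPTIN5, SBNO2, C17orf58 and UXS1 were the others named by rule. At each of these 8 genes another start was near 0 in SKNO1-siAE. All measured promoter tiles were selected in 259 genes, of which 127 had only 1 measured tile. Tiles selected in both directions occurred in 13 genes. One of them was SEPTIN9, a cytoskeletal GTPase gene, which also had the most selected tiles, 7, spread over 3 groups, and 1 tile that was higher in SKNO-1 (0.937 against 0.314).

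The genes were then described by 30 gene lists, which overlap. PAX5, for example, counts among homeobox genes, hematopoietic transcription factors and RUNX1-RUNX1T1 targets. SFRP2, SFRP4 and SFRP5 count among Wnt genes and tumour suppressors, LEF1 among Wnt genes and hematopoietic factors, and ROBO1 among guidance genes and targets. The shares of such lists are therefore not separate observations. Beside each count stands the number of list genes with a measured promoter tile, to be read against 8.89% over all genes, or the number with a tile at 0.6 or more in SKNO1-siAE, to be read against 16.7%. A gene with more measured tiles had more chances to hold a selected one, and the shares of genes were not adjusted for this. Unless stated otherwise, levels given for a gene are those of 1 selected tile, and its other measured tiles may not have been selected. No list was tested, because genes are not replicates of a line.

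Hematopoietic transcription factors had selected tiles in 15 of 67 measured genes (22.4%), or 35.7% of the 42 with a tile at 0.6 or more in SKNO1-siAE. A tile at least 0.6 higher in SKNO-1 was found in 3 of the 67 (4.48%), against 1.96% of all genes. LEF1 had 4 tiles, with its largest decrease at 0 against 0.970. TAL1 had 2, at 0.00882 against 0.994 and 0.154 against 0.953. PAX5 had 3, of which the one at the start was at 0 against 0.905, and CBFA2T3 had 2, at 0.0219 against 0.993 and 0.0208 against 0.973. The other 9 of the 11 measured CBFA2T3 tiles were not selected, among them 2 in promoters of other starts that were at 0 in both libraries and 1, from 89044501 on chromosome 16, that was at 0.614 in SKNO-1 and 0.0444 in SKNO1-siAE. Other members with low levels in SKNO-1 were the ETS factor genes FLI1 (25 of 405 methylated calls against 452 of 455) and ERG (16 of 346 against 358 of 383), and ID2, an inhibitor of helix-loop-helix factors (23 of 1172 against 1000 of 1040). For ID2 this was 1 selected tile among 7. GATA2, which sustains hematopoietic progenitors, had 1 selected tile among 9, at 0 against 0.961, while the tile at one of its other starts was at 0 in both libraries. The list stayed above all genes when only cytosines with at least 10 reads were used, with 11 of 56 genes against 6.75% of all genes, and in tiles with a mean depth of at least 20, with 6 of 31 against 3.53%. Its share fell to 9 of 62 (14.5%) with at least 20 cytosines per tile, against 7.11% of all genes. With only the annotated start of each gene, not all transcript starts, it was 9 of 61 (14.8%), against 6.90%.

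Leukocyte surface antigens had selected tiles in 11 of 70 measured genes (15.7%), or 23.9% of those methylated in SKNO1-siAE, and 2 of the 70 (2.86%) had a tile in the opposite direction. CD44 had 3 tiles, the largest decrease being 0.00381 against 0.998. CD200, an inhibitory ligand for myeloid cells, had 2, at 0 against 0.978 and 0.0104 against 0.914. TNFRSF18, the costimulatory receptor GITR of T cells, was at 0 against 0.929, and ITGA2B, the platelet integrin chain CD41, was at 0.0674 against 0.951. CD74, the invariant chain of MHC class II, and CD96, a lymphocyte receptor, also had a selected tile. The share was 8 of 52 (15.4%) with at least 10 reads, against 6.75% of all genes. At a mean depth of at least 20 it was 3 of 34 (8.82%), against 3.53%.

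Among 45 reported targets of RUNX1-RUNX1T1, a list put together for this work, 42 were measured and 8 had a selected tile (19.05%), 36.4% of the 22 methylated in SKNO1-siAE. In 2 of the 42 (4.76%) a tile was at least 0.6 higher in SKNO-1, against 1.96% of all genes. The 8 genes were BAALC, CAV1, JUP, MEF2C, PAX5, PTGS2, ROBO1 and SPARC. PTGS2, the inducible cyclooxygenase, had 3 tiles, with 35 of 1066 and 1473 of 1482 methylated calls in the one with the largest decrease. MEF2C, a transcription factor of myeloid and lymphoid progenitors, had 3 of 892 against 498 of 519. CAV1 lay just inside the threshold, at 0.0671 against 0.668. The share was 5 of 35 (14.3%) with at least 10 reads, against 6.75% of all genes, and 1 of 16 (6.25%) at a mean depth of at least 20, against 3.53%.

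Genes of the Wnt pathway had the largest share of measured genes among the 30 lists, with 16 of 57 (28.1%), or 32.0% of the 50 methylated in SKNO1-siAE. The list held ligands, receptors and antagonists, and also members inside the cell such as AXIN1, CTNNB1 and LEF1. Besides LEF1, NKD2, an inhibitor of the pathway, had tiles at 0.0252 against 1 and 0.0375 against 0.922. WNT9A, a ligand, had tiles at 0.0625 against 0.910 and 0.0755 against 0.893, and RSPO2, an enhancer of Wnt signals, was at 0 against 0.957. CTNNB1, which encodes beta-catenin, was at 0.0394 against 0.988, the receptor gene FZD4 at 0 against 0.793, and SFRP2, a secreted antagonist, at 0.0210 against 0.880. This share fell with stricter depth. With at least 10 reads 5 of 47 genes (10.6%) had a selected tile, against 6.75% of all genes, and in tiles with a mean depth of at least 20 it was 1 of 24 (4.17%), against 3.53%.

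Guidance and cell contact genes followed. Ephrins, semaphorins, plexins, slits and netrins had selected tiles in 14 of 66 genes (21.2%), or 26.9% of those methylated in SKNO1-siAE. Examples were EPHB4, an ephrin receptor (0.0381 against 0.820), PLXNA4, a semaphorin coreceptor (0 against 0.974), ROBO1, a slit receptor (0.0292 against 0.826), and EFNA1, an ephrin (0.0125 against 0.776). With at least 10 reads 9 of 52 (17.3%) had one, against 6.75% of all genes, and at a mean depth of at least 20 it was 1 of 26 (3.85%), against 3.53%. ADAM, ADAMTS and matrix metalloproteinase genes had them in 12 of 57 (21.1%, and 25% of the methylated genes), among them ADAMTS15 (0.113 against 0.948), MMP11 (0 against 0.894), MMP15 and ADAMTS8. Here the same settings gave 6 of 44 (13.6%) and 1 of 18 (5.56%). A tile at least 0.6 higher in SKNO-1 was found in 2 of the 57 (3.51%), against 1.96% of all genes. Integrins, collagens and laminins had 13 of 74 (17.6% and 19.4%), with COL24A1 at 0.0238 against 0.937 and LAMB2 at 0 against 0.850. Cadherins and protocadherins outside the clusters had 5 of 45 (11.1%), or 12.2% of the 41 methylated in SKNO1-siAE, below the 16.7% of all such genes, namely CDH18, DSC2, DSG1, PCDH7 and CDH26.

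Tumour suppressor genes often methylated in leukemia had selected tiles in 9 of 56 (16.1%). RASSF5 was at 0 against 0.968 over 68 cytosines, and DAPK1, a death-associated kinase gene, was at 0 against 0.937. DLEC1 was at 0 against 0.647 and TNFRSF10C, a decoy receptor for TRAIL, at 0.0284 against 0.920. In the same list 3 genes (5.36%) had a tile at least 0.6 higher in SKNO-1, against 1.96% of all genes. With at least 10 reads 7 of 51 genes (13.7%) had a selected tile, against 6.75% of all genes, and at a mean depth of at least 20 it was 1 of 32 (3.13%), against 3.53%. Of 23 measured genes for enzymes, readers and cofactors of DNA methylation and its removal, 4 had a selected tile. They were TET3, with 3 tiles and the largest decrease at 0.0574 against 0.922, ZBTB4, which encodes a reader of methylated CpGs (0 against 0.946), DNMT3A (0.25 against 0.943) and DNMT3B (0.17 against 0.8). The DNMT3A tile belonged to a start inside the gene and held 16 cytosines, while the tile at that start was at 0.986 and 0.985. The DNMT3B tile lay upstream of the start and held 12 cytosines, while the 27 cytosines of the tile at the start, from 31350001 on chromosome 20, were at 0 in both libraries.

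Interferon response genes had selected tiles in 7 of 52 (13.5%), or 28.0% of the 25 methylated in SKNO1-siAE. Besides CMPK2 and RSAD2, which share a promoter region, they included PARP14 (0.0125 against 0.981) and GBP4, an interferon-induced GTPase gene (0.106 against 0.934). With depths within 1.5 times of each other the interferon share was 4 of 46 (8.70%), against 6.69% of all genes. It was 5 of 44 (11.4%) with at least 10 reads, against 6.75%, and 3 of 28 (10.7%) at a mean depth of at least 20, against 3.53%. Hematopoietic cytokines and receptors had 4 of 55 (7.27%), namely IL15, CSF1, IL17RB and IL15RA, which is below the share of all genes, as are the 12.5% of those methylated in SKNO1-siAE. In 3 of the 55 (5.45%) a tile was at least 0.6 higher in SKNO-1, against 1.96% of all genes. IL15, a growth factor of NK cells, was at 0 against 0.971 at its start, and CSF1, the growth factor of macrophages, at 0 against 0.835. Chemokines and their receptors had 4 of 33 (12.1%, and 16% of those methylated in SKNO1-siAE), at the neutrophil attractants CXCL1 (0.0816 against 0.957) and CXCL2 (0 against 0.748), at CXCL16 and at ACKR3.

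Zinc finger genes formed the largest group, with 54 of 521 (10.4%), or 20.8% of the 259 methylated in SKNO1-siAE. ZNF763 and ZNF141 had 4 tiles each, and ZNF433 was at 0.0106 against 0.982 and ZNF77 at 0 against 0.982. In the same list 26 genes (4.99%) had a tile that was at least 0.6 higher in SKNO-1, against 1.96% of all genes. The share was 45 of 469 (9.59%) with at least 10 reads, against 6.75% of all genes, and 19 of 264 (7.20%) at a mean depth of at least 20, against 3.53%.

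Developmental and signalling lists had shares on both sides of 8.89% of measured genes and of 16.7% of genes methylated in SKNO1-siAE. Homeobox genes outside the HOX clusters had 20 of 146 (13.7%), or 14.9% of those methylated in SKNO1-siAE. PAX6, the eye and brain regulator, had 3 selected tiles among 20 measured, with its largest decrease at 0.0125 against 0.917. LBX2 had 3 among 7, with its largest decrease at 0.0686 against 0.938, and LHX9 had 3 among 9. SOX, TBX and GATA genes had 6 of 36 (16.7%, and 19.4% of the methylated genes), among them TBX1 (0.0137 against 0.948), TBX21, the regulator of type 1 helper T cells (0.0397 against 0.913), and TBX2. For TBX1 this was 1 selected tile among 6. Helix-loop-helix lineage factors had 7 of 58 (12.1% and 14.9%), with HES2 and HEYL, and 3 of the 58 (5.17%) had a tile at least 0.6 higher in SKNO-1, against 1.96% of all genes. TGF-beta and BMP genes had 6 of 60 (10% and 14.0%), with BMP3, LTBP1, BMP8A and INHBA, and forkhead genes 3 of 43 (6.98% and 8.82%), namely FOXK1, FOXO3 and FOXJ1. Counted by tiles, the homeobox list had 32 of 619 selected, above the 4.82% of all promoter tiles. SOX, TBX and GATA genes had 6 of 161 tiles, helix-loop-helix factors 9 of 198 and TGF-beta and BMP genes 8 of 170, each below that share. Ion channels had 21 of 138 (15.2% and 17.1%), with KCNIP2 at 0.00408 against 0.997 and with CACNB1, KCNJ10 and CACNB4, and transmitter receptors 8 of 60 (13.3% and 15.7%), with GRIK2, GABRD, GRIN1 and CHRND. Of the 138 channel genes, 5 (3.62%) had a tile at least 0.6 higher in SKNO-1. G protein-coupled receptors had 26 of 178 (14.6% and 17.0%), among them LGR5, the R-spondin receptor of stem cells (0 against 0.972), GPR176, GPRC5A and S1PR1. Solute carriers had 36 of 317 (11.4% and 18.5%), with SLC4A4 at 0.0231 against 0.933, SLC7A10, SLC47A1 and SLC49A3. Of the 317, 9 (2.84%) had a tile at least 0.6 higher in SKNO-1.

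HOX, germline and clustered protocadherin genes had few or no selected tiles, although most of them were methylated in SKNO1-siAE. The HOX clusters, which pattern the body axis, had 0 of 39 measured genes, and 36 of them had a tile at 0.6 or more in SKNO1-siAE. Their tiles had a median of 0.879 in SKNO-1 and 0.858 in SKNO1-siAE, and 2 of the genes (5.13%) had a tile at least 0.6 higher in SKNO-1, against 1.96% of all genes. Germline genes silenced by methylation had 1 of 50, with 48 methylated in SKNO1-siAE and medians of 0.922 and 0.953. That gene was HORMAD1, a meiotic chromosome protein gene, with 5 of 1553 against 2360 of 2446 methylated calls at its start. Clustered protocadherins had 3 of 51 (PCDHGC3, PCDHB3 and PCDHGB2), with medians of 0.859 and 0.927. Neutrophil granule protein genes had 0 of 20, of which 9 were methylated in SKNO1-siAE. Their tiles had medians of 0.422 for SKNO-1 and 0.141 for SKNO1-siAE, and 2 of the 20 genes (10%) had a tile at least 0.6 higher in SKNO-1, against 1.96% of all genes. Ribosomal protein genes had 2 of 82, RPL26L1 and RPL22. The RPL22 tile, shared with RNF207, lay in an intron upstream of an internal start, and RPL22 also had a tile at 0.680 in SKNO-1 and 0.00186 in SKNO1-siAE. Replication-dependent histone genes had 3 of 61, H1-3 and the divergent pair H2AC14 and H2BC14, and most tiles of the ribosomal and histone genes were unmethylated in both libraries. None of the 19 HLA genes had a measured tile.

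**Figure D4:**
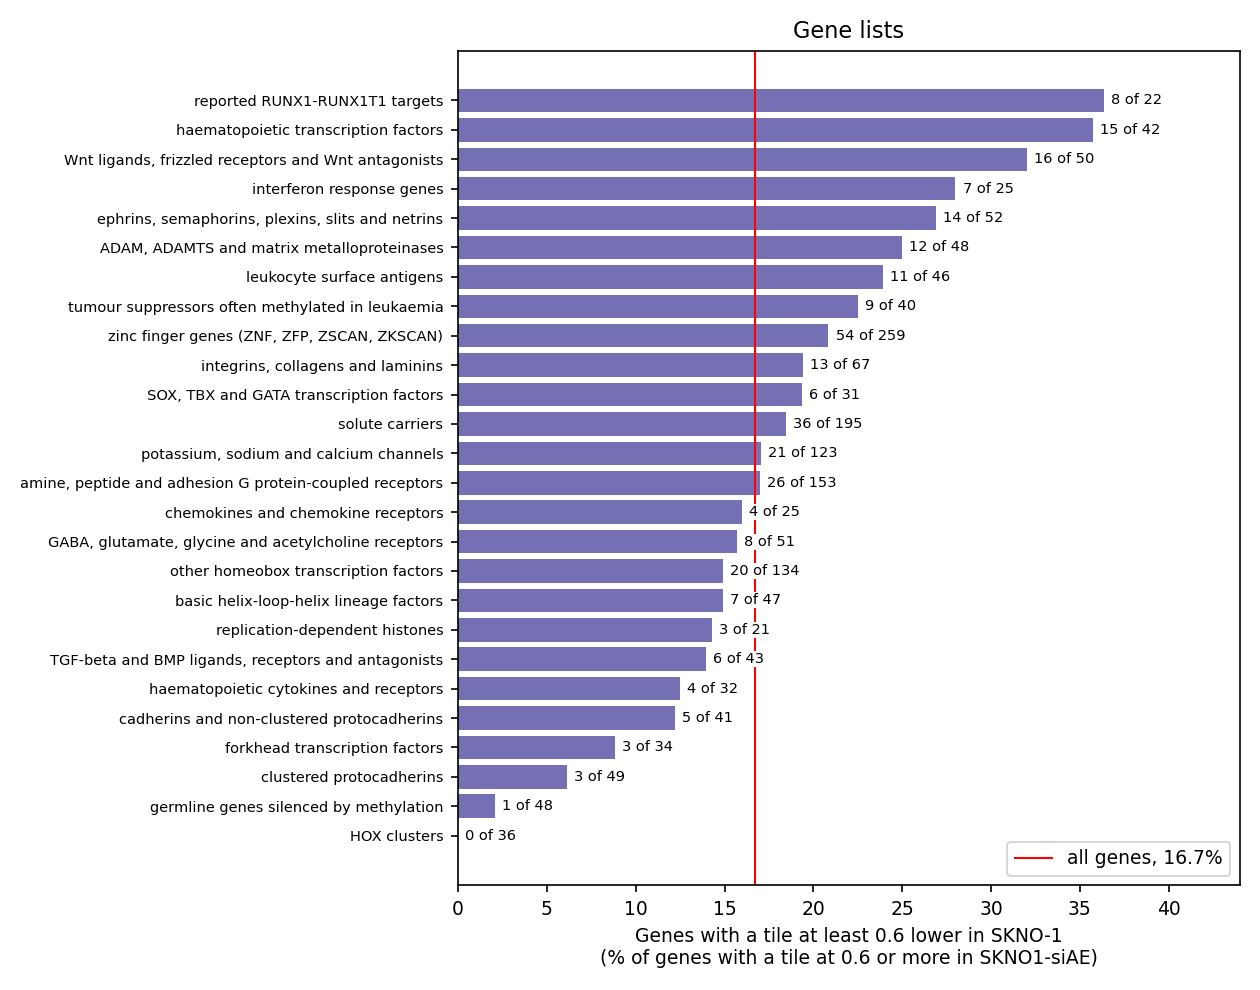
Genes with a selected tile as a percent of the genes with a promoter tile at 0.6 or more in SKNO1-siAE (horizontal axis), for the lists with at least 20 such genes, with the counts beside the bars and the share over all genes, 16.7%, as a red line. RUNX1-RUNX1T1 targets (8 of 22) and hematopoietic transcription factors (15 of 42) have the longest bars, and the HOX clusters (0 of 36) have none.

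The selected tiles were spread over all 22 autosomes. They made up between 3.18% of the promoter tiles of chromosome 9 and 8.995% of those of chromosome 4, where they touched 95 genes. Copy number was not measured, but the ratio of calls between the libraries ran from 0.612 on chromosome 18 to 1.69 on chromosome 15 and was 0.946 on chromosome 4. By windows of 5 Mb, the most genes were in the first 5 Mb of chromosome 19, with 19 of 148 measured genes (12.8%), among them EEF2, GNA11 and KISS1R. The window from 5000001 to 10000000 of chromosome 17 followed, with 15 of 108, among them KCTD11, XAF1 and ZBTB4. The first 5 Mb of chromosome 16 also had 15, of 174, which is 8.62% and near the share over all genes.

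Short motifs known for factors of blood cells and of promoters were counted on both strands of the tiles. The RUNX core letters TGTGGT were found in 312 selected tiles (16.8%) and in 18.4% of all promoter tiles, and the form with a CpG, TGCGGT, in 15.8% and 15.4%. The ETS letters CCGGAA were in 19.5% against 22.9%, the PU.1 letters GAGGAA in 38.3% against 40.2%, the GATA letters AGATAA in 10.9% against 12.5% and the C/EBP letters TTGCNNAA in 11.7% against 14.6%. The CCAAT letters were in 33.5% against 39.6%, the E-box CACGTG in 9.13% against 11.3%, the cAMP response letters TGACGTCA in 0.810% against 1.52% and the TATA letters TATAAA in 9.40% against 11.9%. The SP1 and KLF letters GGGCGG were more frequent in the selected tiles, in 67.9% against 59.1%. Within CpG classes, GGGCGG was in 85.3% of selected and 85.9% of all CpG-rich tiles, in 60.5% against 54.8% of intermediate tiles and in 38.9% against 28.0% of CpG-poor tiles. These matches describe the letters of the tiles and say nothing of binding.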

How the data were processed

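MCC-Seq libraries of SKNO-1 and SKNO1-siAE were analysed, 1 per line. The authors trimmed reads (cutadapt 1.4.2) and aligned them to hg19 (BSMAP 2.73), versions taken from the submitters' processing notes. For the trimming, the paper itself names a Perl script and not cutadapt. The authors deposited 2 unnormalized counts per CpG cytosine and strand, methylated and unmethylated reads, at a minimum of 5 reads. Methylation was called from unique sequences, and any other removal of PCR duplicates is not given in the sources used here. Shallow cytosines give coarse levels, and strands were counted apart.

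Levels, tiles, Wilson limits (at the mean depth of a tile), lists and motifs were computed with python 3.11.15, numpy 2.4.6, pandas 2.3.3 and statsmodels 0.14.6, and plots with matplotlib 3.10.9. Transcript starts were those of GENCODE (release 44, on GRCh37 coordinates), and the GRCh37 assembly gave the sequences. The tile calling was tested on simulated data. With 1 library per line no test was made. The tiles and gene lists were chosen with earlier results of these data known.

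The rule named the 15 genes with the largest decrease, the 10 longest runs, up to 4 genes per list by number of selected tiles, 5 tiles on each side of the threshold, 8 genes with another unmethylated start, 3 windows and 6 sequences. Among the genes with the largest decrease, 1 is not reported here. All other genes were chosen after their values were seen. Alternatives changed the reads per cytosine, the cytosines per tile, pooling, strands, the grid, the promoter interval, the autosomes, the depth ratio, the threshold and, added after seeing the data, the mean depth. Sex chromosomes were not used.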

Additional observations from a re-analysis of the deposited data

How the results depend on the processing

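Counts of tiles lower in SKNO-1, of their genes and of tiles higher in SKNO-1 were 1852, 1400 and 392. Of 45 alternative values, 30 stayed within 1.5 times of these. The exceptions were at least 10 reads per cytosine (1025, 888 and 238), at least 20 cytosines per tile (1094, 911 and 210), depths within 1.5 times of each other (1051, 901 and 209), the autosomes with a read ratio within 10% of 1 (1104, 810 and 215) and, added after seeing the data, a mean depth of at least 20 (262, 245 and 76). Each of these settings leaves fewer tiles to measure. Lower tiles outnumbered higher tiles by 3.45 to 5.21 times in the alternatives, and made up 3.01% to 6.18% of the tiles measured, against 4.82%. With pooled calls 1746 of the 1852 tiles kept a decrease of at least 0.6. With at least 10 reads 922 of them were still selected. No paired analysis was possible because there was 1 library per line and no result comes from a test. Leaving out a replicate was not possible. The spread between cultures was not measured, and the share of selected tiles fell with depth.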
